A study of Mus musculus with 2 samples.

Results

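Peaks of N4-acetylcytidine (ac4C) RNA near the 2 ends of mid-sized protein-coding genes are described here, from wild-type mouse uterus taken whole at gestational day 4. A peak was a member when it lay on chromosomes 1 to 19, its summit fell in exactly 1 protein-coding gene, that gene spanned from 5 kb to under 200 kb in RefSeq (GRCm38.p6), and no more than 1 kb separated the summit from an outer limit of the span. Of the 21192 peaks in the authors' list, 16014 had their summit in exactly 1 such gene, and 2813 of these were members (17.6%, 95% Wilson interval 17.0 to 18.2%). The other 13201 lay farther inside and serve as the comparison. The members came from 2357 genes.

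The study sequenced 1 ac4C immunoprecipitation library and 1 input library, both of polyA RNA from the whole uterus and made with a strand-keeping kit. In acRIP-seq, an antibody pulls down RNA fragments that carry ac4C, and regions with more pulled-down fragments than background are called as peaks. Neither group had a replicate, both came from the same kind of wild-type tissue, and the labels do not say how many animals were pooled. There was therefore no replicate check, and no p-values were calculated. Intervals of a fold enrichment cover the counting error of the pulled-down fragments only, with the background taken as known. They are therefore too narrow where the background is low. Intervals of medians and shares treat peaks or genes as independent. None of the intervals covers the spread between animals or libraries. Of 40 mid-sized genes listed for uterine receptivity, 30 held a peak anywhere, against 33.5% of all mid-sized genes. The list's steroid receptors Esr1 and Pgr and its homeobox genes Hoxa10 and Hoxa11, known from this tissue, each held a peak.

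As background, ac4C is an acetyl group on the base cytidine, written by the enzyme NAT10, and is long known from ribosomal and transfer RNA. In messenger RNA its place is debated, and the start of the transcript, the coding sequence and the untranslated stretches have all been studied for it. The start of a gene span holds the first exon, with the cap and usually the leader before the coding sequence. The far end of the span holds the end of the last exon, where the 3′ untranslated region and the poly(A) site lie. Exon positions were not used here, so a summit is placed by its distance along the genome and not along the mRNA.

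The peak list gave no strand, but a RefSeq table of transcript starts gave the strand of 12068 of 15151 mid-sized genes (79.7%). With it, 2251 members were placed at 1 end: 1012 at the gene start, in 956 genes, and 1239 at the 3′ end, in 1178 genes. The start held 45.0% of these peaks (95% Wilson interval 42.9 to 47.0%). The remaining 562 members lay in genes without a strand, 289 at the end with the lower coordinate and 273 at the other.

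To show what the start of a gene with a strong start peak looks like, 5 start regions are printed. They are the 5 with the highest fold enrichment among the 146 start peaks that overlapped the RefSeq promoter window (250 bases before to 50 bases after the start), in genes whose RefSeq start is also the outer limit of the span. Each line gives the last 80 bases before the start in lower case and the first 30 transcribed bases in capitals, 5′ to 3′ on the gene's strand, from RefSeq on GRCm38.p6.
Ephb4 (chr5:137350029-137350138, plus strand): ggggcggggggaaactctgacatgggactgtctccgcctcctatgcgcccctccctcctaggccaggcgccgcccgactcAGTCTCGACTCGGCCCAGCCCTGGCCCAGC
Klf13 (chr7:63938886-63938995, minus strand): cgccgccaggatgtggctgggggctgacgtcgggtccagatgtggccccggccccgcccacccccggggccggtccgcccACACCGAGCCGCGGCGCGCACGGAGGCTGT
Ihh (chr1:74951643-74951752, minus strand): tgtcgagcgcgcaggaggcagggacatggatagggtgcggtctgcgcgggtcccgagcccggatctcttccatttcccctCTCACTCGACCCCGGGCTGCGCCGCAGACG
Aebp1 (chr11:5861786-5861895, plus strand): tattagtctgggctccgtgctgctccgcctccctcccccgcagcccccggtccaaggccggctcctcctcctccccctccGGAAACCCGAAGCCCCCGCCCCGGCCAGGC
Atp1b1 (chr1:164458326-164458435, minus strand): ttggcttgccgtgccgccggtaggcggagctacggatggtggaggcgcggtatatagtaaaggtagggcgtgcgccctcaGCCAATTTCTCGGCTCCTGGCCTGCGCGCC

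All 5 were rich in cytidine, and in G and C together. The 30 capital bases held 14 cytidines in Ephb4, 11 in Klf13, 14 in Ihh, 15 in Aebp1 and 13 in Atp1b1. In the same order they held 8, 12, 9, 9 and 8 G. Over the first 50 transcribed bases the cytidine share was 48% in Ephb4 and Ihh, 44% in Atp1b1, and 42% in Klf13 and Aebp1. The mean over all 6344 mid-sized genes with such a start was 28.6% ± 9.11 (SD). The combined share of G and C ran from 68% in Ephb4 to 76% in Ihh and Aebp1, against a mean of 61.3% ± 12.5 (SD) over the 6344 genes. The summits of these peaks lay farther in, from 186 bases after the start in Atp1b1 to 589 in Klf13. The peaks of Ephb4, Klf13 and Ihh began 11, 16 and 99 bases before the annotated start, while those of Aebp1 and Atp1b1 began 37 and 17 bases after it.

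Cytidine at the start was compared between genes by where their peaks lay. Of all 1012 start peaks, 834 (82.4%) began at or after base 50 of the span. The first 50 bases, used here and for the motif and G and C classes below, thus lay outside most start peaks. They describe gene starts and not the sequence of the peaks. Over the first 50 transcribed bases, the mean cytidine share was 31.9% ± 9.22 (SD) in the 597 genes with a start peak, 30.6% ± 9.58 in 454 genes with a 3′ end peak but no start peak, 30.6% ± 9.31 in 935 genes with inside peaks only, and 27.6% ± 8.79 in 4358 genes without a peak. The values of single genes overlapped widely between all 4 groups, and no test of the means was made. The combined share of G and C ran the same way, at 69.2%, 66.5%, 66.7% and 58.6%. The share of G alone was 37.3%, 35.9%, 36.1% and 31.0%, above the cytidine share in every group.

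The motif CNNCNNCNNCNN, a cytidine followed by any pair of bases in 4 repeats, has been discussed for ac4C sites. It occurred at least once in these 50 bases in 38.5% of genes with a start peak (95% Wilson interval 34.7 to 42.5%), 31.3% with a 3′ end peak but no start peak (27.2 to 35.7%), 34.3% with inside peaks only (31.4 to 37.4%) and 23.4% without a peak (22.2 to 24.7%), and in 1713 of all 6344. Searched as its reverse complement, NNGNNGNNGNNG, it occurred in 48.4%, 46.3%, 44.4% and 31.3% of the same gene groups and 35.9% of all. Copies that overlap each other were counted as 1 occurrence. Both orientations were thus more frequent where a gene held a peak, and the motif on the transcribed strand was the rarer of them in every group.

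Genes with a start richer in G and C held a start peak more often. A start peak was found in 1.20% of 1087 genes with a G and C share below 50% in the first 50 bases, in 10.8% of 1857 genes at 60 to under 70%, and in 18.9% of 502 genes at 80% or more. The share of the same genes with a peak anywhere was 9.11%, 36.8% and 56.0%. Among genes with any peak, the share with a start peak was 13.1% (95% Wilson interval 7.84 to 21.2%), 29.4% (26.1 to 33.0%) and 33.8% (28.5 to 39.5%). Transcript abundance, which may differ between these genes, was not measured here.

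Summits were far denser at the ends than inside. Over all genes with a peak, both end zones together held 276.9 peaks per Mb of span (95% Poisson interval 266.8 to 287.3) and the rest of the span 59.6 (58.6 to 60.7), a ratio of 4.64. The zones made up 4.39% of the span of these genes. In genes with a known strand, the density was 249.0 peaks per Mb at the start (233.8 to 264.8), 304.8 at the 3′ end (288.1 to 322.2) and 59.4 inside (58.2 to 60.5). The inside is mostly intron in long genes, so these densities per genomic base are not densities per base of mRNA. In genes of 5 to under 10 kb the start held 12.8% of all peaks, 3′ end peaks included, and made up 13.4% of the span, as given with the gene spans.

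The 2 ends differed in how the summits were placed. From the gene start, the count rose from 25 in the first 100 bases to 133 in the next and 242 between 200 and 299 bases, then fell to 69 in the last step before 1 kb. The median distance was 382 bases (interquartile range 230 to 648), and 62.2% lay in the first 500 bases (95% Wilson interval 59.1 to 65.1%). From the 3′ end there were 3 summits in the last 100 bases, 54 in the next step and 176 between 300 and 399 bases, and the count was still 135 in the last step before 1 kb. The median distance there was 546 bases, and 44.0% lay in the last 500 (41.2 to 46.8%).

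The 1 kb limit thus closed off most of the start cluster but cut through a longer 3′ plateau. In genes of at least 9 kb, the density fell from 245.9 peaks per Mb in the start zone to 78.9 between 1 and 2 kb from the start and 66.9 between 2 and 3 kb. From the 3′ end it was 282.9 in the zone, 280.1 between 1 and 2 kb and 207.9 between 2 and 3 kb. The members nearest to the limit were peaks of Ankrd52, at 5.13-fold (95% interval 3.33 to 7.59), and Col1a2, at 3.49-fold (2.90 to 4.16), both exactly 1000 bases from the 3′ end. The peaks nearest outside it were a pair in Armc5, 1002 bases from an end, at 9.96 (6.68 to 14.3) and 8.51 (5.08 to 13.5).

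**Figure D1:**
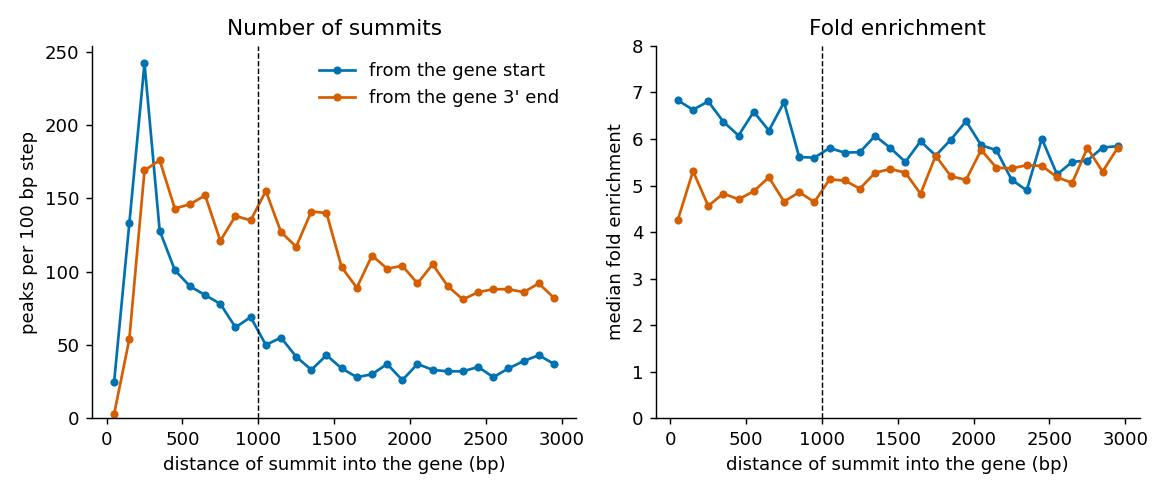
Number of summits (left) and median fold enrichment (right) in steps of 100 bp, by distance into the gene from its start or its 3′ end, for genes with a known strand. The dashed line marks the 1 kb limit. Summits at the start form a narrow cluster with 242 in the step from 200 to 299 bp, while those at the 3′ end reach 176 and stay above 100 from 200 bp to the limit.

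The ends also differed in enrichment and width. The fold enrichment, the ratio of pulled-down fragments to background that the authors' peak caller gave for a summit, had a median of 6.40 at starts (interquartile range 5.19 to 8.85), 4.78 at 3′ ends (3.73 to 6.40) and 5.58 inside genes of known strand (4.36 to 7.27). The 95% intervals of these medians, 6.25 to 6.63, 4.66 to 4.94 and 5.54 to 5.62, did not overlap. In classes of equal background, given below, the intervals of start and inside were not apart in any class. Pooled over both ends, the members stood at 5.56 against 5.604 inside, with the 2 ends on opposite sides of the inside value. With only the highest peak of each gene and zone kept, the ratio of the start median to the inside median was 1.02. Its 95% interval of 0.984 to 1.05, with the inside median taken as fixed, included 1. This setting does not pick the 2 medians alike. Of the start genes, 94.1% held 1 start peak, while the 10526 inside peaks came from 3509 genes, so the highest of several was often kept inside. The order start, inside, 3′ end was seen on 18 of 18 chromosomes that held genes with a strand.

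Among all peaks in mid-sized genes, 9.38% reached a fold enrichment of at least 10. At starts the share was 18.1% (183 peaks, 95% Wilson interval 15.8 to 20.6%), at 3′ ends 5.57% (69 peaks, 4.42 to 6.99%) and inside 8.71% (8.19 to 9.27%). Starts did not lead by the authors' q-value. The median −log10 q was 8.61 at starts, 8.93 at 3′ ends and 9.10 inside, and 41.2%, 43.9% and 45.1% of peaks reached at least 10. Width was larger at 3′ ends than at starts. The median was 308 bp at starts, 365 bp at 3′ ends and 309 bp inside, and 2.67% of start peaks but 7.26% of 3′ end peaks spanned at least 1000 bp, against 5.29% inside.

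The number of fragments behind a summit, recovered from the fold enrichment and its p-value, moved with the end. Its median was 14 fragments at starts, 26 at 3′ ends and 22 inside. The background moved more, with medians of 1.31, 4.29 and 2.80 fragments. Of the start peaks, 40.8% had a background below 1 fragment, against 8.31% of 3′ end peaks and 15.6% inside. How the background was computed is not given in the sources used here, and the ends were therefore also compared within classes of equal background.

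In these classes the start median stood above the 3′ end median except below 1 fragment, where no order was resolved. Below 1 fragment the median fold enrichment was 6.34 at starts, 6.54 at 3′ ends and 6.40 inside, with overlapping 95% intervals. The median was 10 fragments in each zone of this class. All listed peaks had a q of at most 0.0499, so at a low background only a high fold enrichment could enter the list. Near-equal medians in this class therefore cannot be told apart from the cut-off. The same tie to background holds for the medians over all peaks. From 2 to under 4 fragments it was 6.204 (5.87 to 6.64), 5.47 (5.17 to 5.78) and 5.83 (5.78 to 5.96). From 4 to under 8 fragments it was 6.32 (4.91 to 7.68) over 59 start peaks, 4.402 (4.28 to 4.63) over 345 peaks at 3′ ends and 4.93 (4.84 to 4.998) inside. From 1 to under 2 fragments, the class of 31.6% of start peaks, it was 6.92 (6.48 to 7.35), 6.33 (5.82 to 6.83) and 6.37 (6.22 to 6.48). At 8 or more fragments it was 4.16 (3.49 to 5.02) over 27 start peaks, 3.54 (3.31 to 3.63) and 3.76 (3.67 to 3.88). The intervals of start and 3′ end were thus apart in the classes from 2 to under 8 fragments and overlapped in the other 3. Those of start and inside overlapped or met at a limit in every class. Over 1 to 4 fragments together, the start median was 1.09 times the inside median (1.04 to 1.14, inside taken as fixed).

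**Figure D2:**
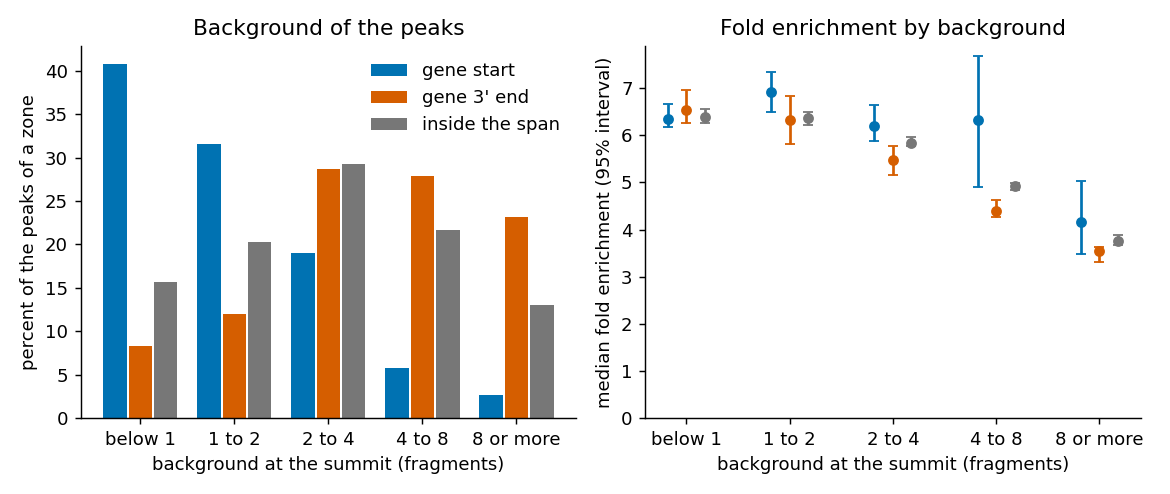
Share of the peaks of each zone by background at the summit (left) and median fold enrichment with its 95% interval in the same classes (right), for gene starts, 3′ ends and the inside of the span. Start peaks crowd into the lowest class, with 40.8% below 1 fragment, and the medians of the 3 zones overlap there.

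The highest peaks at gene starts ranged from 23.7-fold to 26.8-fold in 10 genes. Glud1, the mitochondrial glutamate dehydrogenase, stood at 26.8 (95% interval 20.8 to 33.9), from 67 fragments over a background of 1.54, and this was the sole peak of the gene (NCBI gene 14661; chromosome 14, 34310818 to 34311385). Flnc, an actin-crosslinking filamin of muscle, stood at 26.5 (21.1 to 33.0), from 79 fragments over 2.01 (NCBI gene 68794; chromosome 6, 29433256 to 29434027). Flnc held 20 peaks, of which the next reached 13.1.

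Ephb4, the receptor for ephrin-B2 in blood vessels, stood at 26.1 (19.4 to 34.5), and Klf13, a Krüppel-like zinc finger factor, at 25.1 (18.6 to 33.1). Yy1, a zinc finger regulator of transcription, held a pair of start peaks, at 25.003 and 7.63. Ihh, the Hedgehog ligand that the uterine epithelium makes under progesterone, stood at 23.8 (17.1 to 32.3), on 39 fragments over 0.683 (NCBI gene 16147; chromosome 1, 74950503 to 74951771). The other 4 were Irf2bp2, a corepressor, at 24.3, Capn2, the large subunit of a calpain protease, at 24.1, Lrch1, a leucine-rich repeat protein, at 23.8, and Ccni, cyclin I, at 23.7. The intervals of all 10 overlapped each other, so their order was not resolved.

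The highest peaks at 3′ ends were lower, from 15.6 to 20.3. The first was in Ccl21b, a chemokine gene with near-identical copies nearby, at 20.3 (15.3 to 26.4). Reads of the copies may have been shared, so this value was uncertain as one of a single gene. The membership of Ccl21b and its 3′ end label rest on a RefSeq span of 83706 bases, with the summit 83292 bases from the start. Next were Hgs, which sorts ubiquitin-tagged receptors in endosomes, at 19.4 (14.3 to 25.9; NCBI gene 15239; chromosome 11, 120482362 to 120483853), and Zfp385a, a zinc finger protein, at 18.8 (12.5 to 27.2) on 26 fragments. Hgs held 3 other peaks, of which the highest stood at 13.5.

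Map3k11, a kinase of the JNK pathway, stood at 18.1, Epn1, an endocytic adaptor, at 17.4 and Hk1, hexokinase 1 of glycolysis, at 17.1. Tmem131, a membrane protein, stood at 16.9, Wbp11, a splicing factor, at 16.4, Hmcn2, an extracellular hemicentin, at 16.3, and Gga1, an adaptor of the trans-Golgi, at 15.6. In Hmcn2 the 3′ end peak was 1 of 57 peaks, and an inside peak of the gene was as high, at 16.7. Of these 10 peaks at 3′ ends, 5 were at least 1000 bp wide, against 4 of the 10 at starts. These peaks were picked for their height, so the values describe them only.

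**Figure D3:**
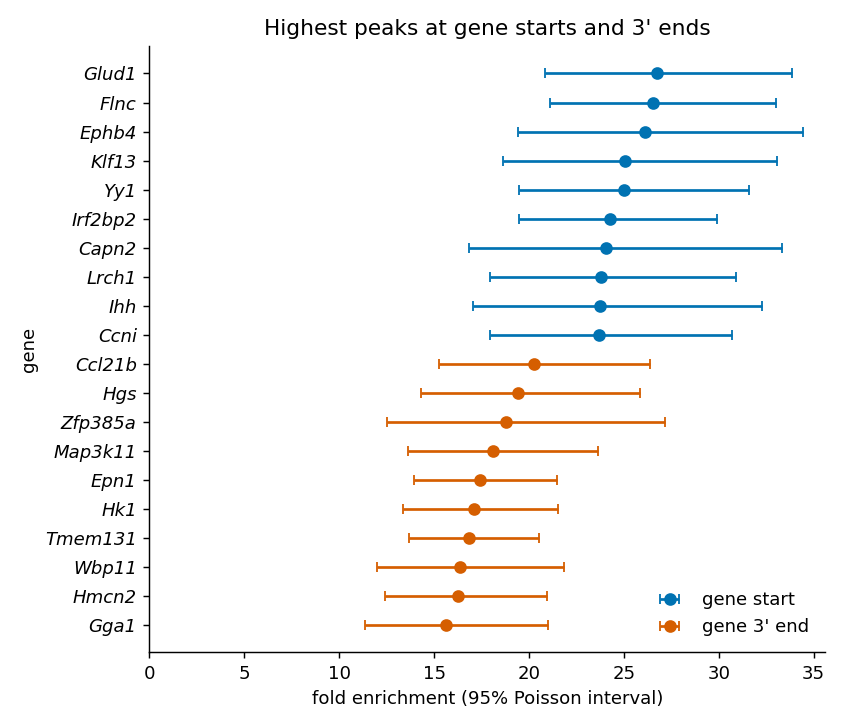
Fold enrichment of the 10 highest peaks at gene starts and the 10 highest at gene 3′ ends, 1 per gene, with the 95% Poisson interval of the fragment number. All 10 start peaks lie above 23, all 10 peaks at 3′ ends at or below 20.3, and within each end all 10 intervals overlap.

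Peaks were next compared within the same gene. In 656 genes with both a start peak and an inside peak, the start median was above the inside median in 436 (66.5%, 95% Wilson interval 62.8 to 69.97%), with a median ratio of 1.26. In 908 genes with a 3′ end peak and an inside peak, the 3′ end stood above in 318 (35.0%, 32.0 to 38.2%), with a ratio of 0.857. Background was higher at the start than inside in 83 of the 656 genes (12.7%), and higher at the 3′ end than inside in 682 of the 908 (75.1%).

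Among genes with at least 2 peaks, the start peak was the highest of its gene in 325 of 686 (47.4%, 43.7 to 51.1%), while 1 peak made up on average 28.0% of the peaks of these genes. The 3′ end peak was the highest in 190 of 937 (20.3%, 17.8 to 23.0%), where 1 peak made up 26.5%.

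Peaks at both ends were held by 240 genes, which is 25.1% of genes with a start peak and 20.4% of genes with a 3′ end peak. Among the genes with strand and a peak, 29.01% held one at the 3′ end and 23.5% at the start. In 167 of the 240 genes the start peak had the higher fold enrichment (69.6%, 95% Wilson interval 63.5 to 75.1%) and in 20 the higher background (8.33%). The interval of the start value lay wholly above that of the 3′ end in 49 genes and wholly below it in 4. In the remaining genes the intervals overlapped. All these intervals take the background as known, so its error is left out of the counts of genes.

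The 5 of these genes with the highest value at their weaker end were Tmem131, Upf1, Bag6, Btbd2 and Ttyh3. Tmem131 stood at 13.8 at the start (95% interval 9.54 to 19.5) and 16.9 at the 3′ end (13.7 to 20.5). Upf1, the helicase of nonsense-mediated decay, stood at 13.4 (9.18 to 18.9) and 10.8 (7.69 to 14.7). Bag6, a chaperone for membrane proteins, stood at 12.4 (9.09 to 16.6) and 10.3 (7.75 to 13.5). Btbd2, a BTB domain protein, stood at 10.2 (5.91 to 16.7) and 14.2 (10.5 to 18.7), and Ttyh3, a tweety family membrane protein, at 10.3 (6.22 to 16.1) and 10.2 (7.73 to 13.3). In each of the 5 the intervals of the ends overlapped. The highest peak of Bag6, at 18.3, and that of Ttyh3, at 20.7, lay inside the gene.

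**Figure D4:**
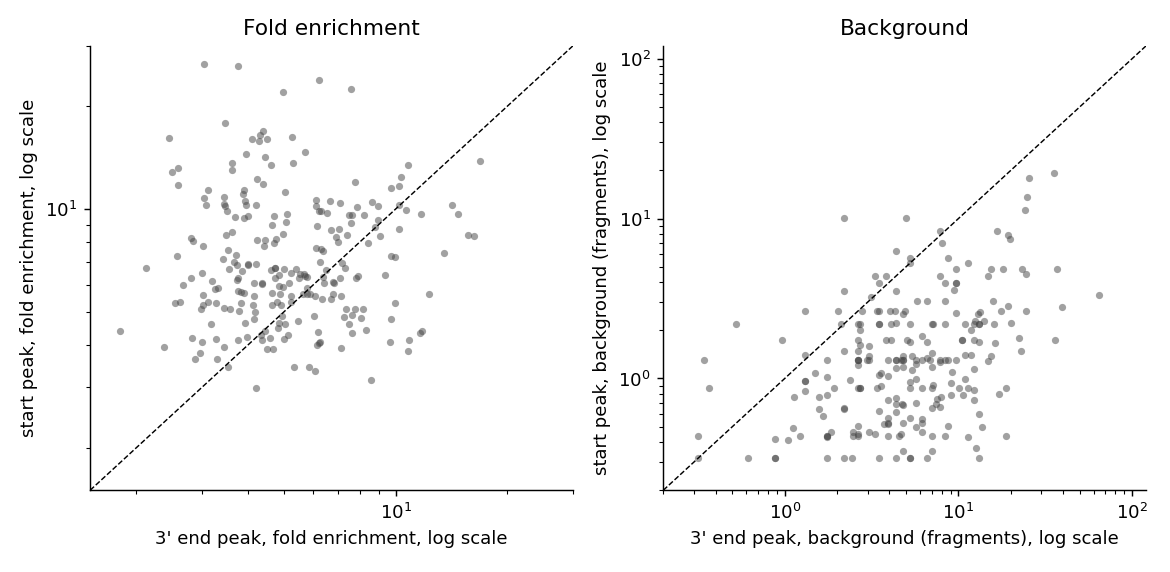
Start peak against 3′ end peak of the same gene in the 240 genes with both, for fold enrichment (left) and background (right), on log axes. The dashed line marks equal values. Start peaks are higher in fold enrichment in 167 genes, and in background in 20.

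The span of a gene changed the balance of the ends. In genes of 5 to under 10 kb, 12.8% of peaks lay at the start (95% Wilson interval 11.1 to 14.8%) and 20.8% at the 3′ end (18.6 to 23.1%), where 1 zone made up 13.4% of the span. The start of these short genes thus held no larger share of peaks than of the span. In genes of 100 to under 200 kb, 5.92% lay at the start (4.98 to 7.02%) and 3.74% at the 3′ end (2.9996 to 4.64%), where 1 zone made up 0.726%. The 3′ end held more peaks than the start below 20 kb, and the start held more from 100 kb up, with intervals that did not overlap. Between 20 and 100 kb the intervals overlapped. The median fold enrichment at starts was 5.96 in the shortest class and 6.96 in the longest, and at 3′ ends it ranged from 4.27 to 4.96 with no order by span.

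**Figure D5:**
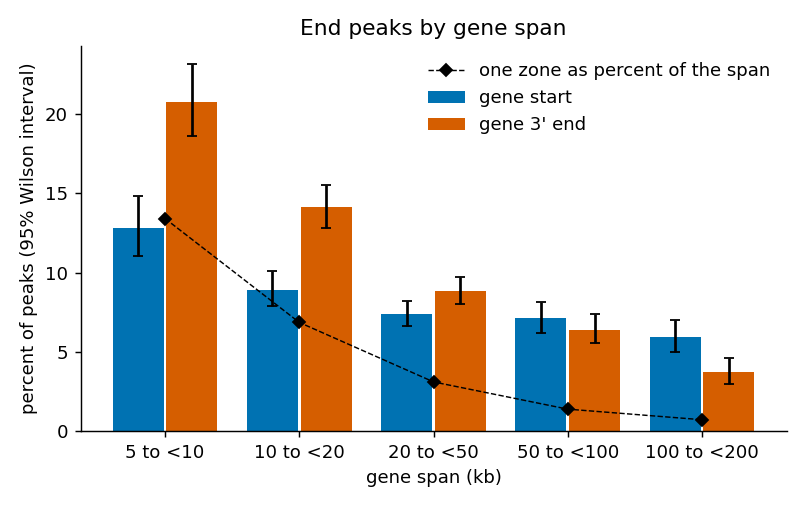
Share of the peaks of genes with a known strand that lie at the gene start or the 3′ end, by gene span, with 95% Wilson intervals. Diamonds give the share of the span that 1 zone makes up. The 3′ end falls from 20.8% to 3.74% of peaks and the start from 12.8% to 5.92%.

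Genes without a known strand held the strongest member. Naf1, an assembly factor of box H/ACA ribonucleoproteins, stood at 56.3 (95% interval 44.8 to 69.9), on 80 fragments over 0.438, with the summit 755 bases from the lower end of the span, and it was the sole peak of the gene. Bmp1, the procollagen C-proteinase, followed at 32.9 (24.7 to 42.9) on 52 fragments over 0.613. Both intervals take these low backgrounds as known and leave out their error. Both were picked after their values were seen. The medians of these members, 5.43 at the lower and 5.33 at the higher end, lay between those of starts and 3′ ends.

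Of the mid-sized genes, 33.5% held a peak anywhere and 15.6% a peak at an end. With a known strand, 7.92% held a start peak and 9.76% a 3′ end peak. These shares are the base for 6 gene lists, which share Cdh1, Muc1 and Kdr between some of them. None of the counts was matched on transcript abundance or on the number of peaks per gene. In a whole tissue, fewer cells of a type and less RNA per cell cannot be told apart.

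Of 40 mid-sized genes of uterine receptivity, 8 held a peak at an end (95% Wilson interval 10.5 to 34.8%, which includes the 15.6% of all mid-sized genes). A peak anywhere was held by 30 of the 40. Among genes with a peak, end peaks were thus found in 8 of 30, against 46.5% of all such mid-sized genes. With strand, 3 of 32 had a start peak and 4 of 32 a 3′ end peak. All 3 genes with a start peak also had one at the 3′ end. Ihh stood at 23.8 and 6.19, Notch1, a receptor of cell-to-cell signalling, at 5.87 and 3.31, and Gata2, a transcription factor, at 7.33 and 5.67 at the start and 3.70 at the 3′ end. The other leading members were Klf5, an epithelial Krüppel-like factor, at 14.3, and Bmp2, a growth factor of decidualization, at 10.4, both at the lower end of genes without strand.

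Counted per gene, extracellular matrix genes held end peaks often, in 25 of 37 (67.6%, 51.5 to 80.4%), with a peak anywhere in 36 of 37. Among genes with a peak this was 25 of 36, against 46.5% of all such mid-sized genes, with the number of peaks per gene not matched. With strand, 11 of 24 had a start peak and 10 of 24 a 3′ end peak. Lamc1, a laminin chain, led at 22.5 (17.3 to 28.8), followed by Lox, which crosslinks collagen, at 14.9 (10.02 to 21.5) and Adamts1, a metalloprotease, at 12.7 (9.60 to 16.6). The lowest, named after their values were seen, were Col3a1, a fibrillar collagen, at 2.13 on 111 fragments, and Dcn, the proteoglycan decorin, at 1.75 on 59 fragments. The median of the 35 end peaks of the list was 5.39, against 5.56 over all members.

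Smooth muscle genes of the myometrium held start peaks in 8 of 15 genes with strand and 3′ end peaks in 2 of 15. Over all mid-sized genes with strand these shares were 7.92% and 9.76%, not matched on transcript abundance. Of the 19 mid-sized genes of the list, 16 held a peak anywhere and 11 one at an end. Among genes with a peak this was 11 of 16, against 46.5% of all such mid-sized genes. Des, the intermediate filament desmin, led at 11.6 (9.29 to 14.4) on 82 fragments, followed by Synm, its partner synemin, at 7.84 (5.14 to 11.5), and Pdlim7, a scaffold of actin filaments, at 7.76 (4.83 to 11.9), all at the start. In Des the next peak of the gene stood at 4.56.

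Epithelial genes held a peak anywhere in 12 of 14 and an end peak in 8 of 14, with start peaks in 5 of 10 and 3′ end peaks in 5 of 10. Spint2, a protease inhibitor, led at 9.86 at the start, followed by the keratins Krt7 at 9.72 at the 3′ end and Krt8 at 8.10 at the start. Of the endothelial genes, 14 of 15 held a peak anywhere and 10 of 15 an end peak. The leading members were Eng, the TGF-beta coreceptor endoglin, at 14.4 (11.2 to 18.4), Flt1, a VEGF receptor, at 7.41, and Nos3, the endothelial nitric oxide synthase, at 7.35. Of the immune genes, 6 of 14 held a peak anywhere, 5 of 14 an end peak and 0 of 8 a start peak. The list was too short to set against the 7.92% of all genes. Their leading members were Cd3e of T cells at 6.96 on 9 fragments, Spi1 of myeloid cells at 5.32 on 6 fragments, and C1qb, a complement chain of macrophages, at 4.74. Among genes with a peak, end peaks were found in 8 of 12 epithelial, 10 of 14 endothelial and 5 of 6 immune genes. The share over all mid-sized genes with a peak was 46.5%, and the number of peaks per gene was not matched.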

How the data were processed

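The data were 1 peak list for the ac4C immunoprecipitation library, in narrowPeak layout without a header. Per the submitters' processing notes, HISAT2 2.2.1, MACS3 3.0.0a7 and build mm10 were used, with no role or order given. The fold enrichment (a ratio), the −log10 p-value and q-value and the score of each peak were deposited by the authors and describe peaks only. The score equalled the −log10 q times 10 without decimals in 21191 of 21192 peaks. The largest q was 0.0499. Read totals were not used, so depth is the fragment number at each summit.

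That number was sought such that (fragments + 1)/(background + 1) gave the fold enrichment and the Poisson upper tail gave the p-value. It was found within a relative tolerance of 0.0001 for 21192 peaks. Simulated peaks were used to test this step (99.95% of 2000 right), as was the placing of summits (100% of 1600). Intervals of a fold enrichment are exact Poisson intervals with the background taken as known, those of medians come from order statistics, and those of shares are Wilson, all at 95%. For a ratio of medians, the inside median was taken as fixed, so its own error is left out. PCR copies were not told apart.

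Gene spans came from RefSeq (GRCm38.p6), strands and sequences from its table of transcript starts, which gave no strand on chromosome 18. Named were the 10 highest peaks at each end, 1 a gene, the 5 leading genes with both ends, up to 3 members of each list, and the 2 peaks nearest to the 1 kb limit on each side. Members, lists and rules were chosen with earlier results of these data known. Python 3.11.15, pandas 2.3.3 and scipy 1.17.1 were used.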

Additional observations from a re-analysis of the deposited data

How the results depend on the processing

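Of the alternative values, 59 stayed within the counting interval or within 1.5 times for a count, 39 moved and 3 reversed. The alternatives on the start and the 3′ end were chosen after seeing the data. In what follows, density, fold enrichment and width are ratios to the inside of the gene, which were 4.64, 0.993 and 1.10 for both ends, and for fold enrichment 1.15 at starts and 0.856 at 3′ ends. With a zone of 500 bp there were 1454 members (9.08%), density was 4.45 (4.84 at starts, 4.21 at 3′ ends), fold enrichment 1.04, width reversed to 0.978, the start share reversed to 53.5%, and 69 genes had both ends. With 2 kb there were 4765 members (29.8%), density was 4.41 (3.23 and 5.64), width 1.17, start fold enrichment 1.11, start share 36.4%, and 522 genes had both ends. With a −log10 q of at least 10 there were 1201 members (16.7%), density was 4.43 (3.91 at starts), fold enrichment 1.07 (1.31 at starts), width 1.19, and 70 genes had both ends. In genes of 10 to under 100 kb density was 3.59 (3.25 and 4.02). With 1 highest peak per gene and zone the share was 37.7%, density 13.2 (11.9 and 14.6), fold enrichment 0.868 (1.02 and 0.755) and width 1.07. This keeps fewer inside peaks by construction. It also often keeps the highest of several inside, so fold enrichment is not compared alike. Against summits 1 to 2 kb from an end, density was 1.44, fold enrichment 1.03, and width reversed to 0.918. At a background of 1 to 4 fragments, fold enrichment was 1.09 at starts and 0.934 at 3′ ends. The cause was not tested for any of the other changes. Across the 11 alternatives, the ratio of fold enrichment ranged from 1.02 to 1.31 at starts, where the lowest, with 1 highest peak per gene and zone, had an interval that included 1 (0.984 to 1.05), and from 0.755 to 0.934 at 3′ ends. No paired analysis was possible because each group had 1 library. Depth limits single peaks most at starts, where the median summit held 14 fragments.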

Other observations

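Some inside peaks lay near another annotated start of their gene. Of the 10526 inside peaks in genes with a known strand, 325 (3.09%) had the summit within 1 kb after a RefSeq transcript start that was not the outer limit of the span. Their median fold enrichment was 6.07 (95% interval 5.70 to 6.32), with 16 fragments over a background of 1.42. The other 10201 inside peaks stood at 5.56 (5.52 to 5.62), with 22 fragments over 2.98, and peaks at the outer starts at 6.40 (6.25 to 6.63).

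Members had their summit inside the gene by rule, and some still reached past its outer limit. Of the start peaks, 74 of 1012 began before the span (7.31%), and 834 began at or after base 50 of it (82.4%). Of the 3′ end peaks, 9 of 1239 ran past the span (0.726%).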
